A study of Mus musculus with 22 samples.

Results

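The genes described here encode the proteins of the cytosolic ribosome and their close copies, 90 genes of the 46297 in a table of RNA-seq values from mouse CD8+ T cells. They were chosen by name: symbols that start with Rpl or Rps and a digit, the P stalk genes Rplp0, Rplp1 and Rplp2, and Rpsa, without the 266 names that end in -ps and the 10 ribosomal S6 kinase names that share the prefix. Of 92 such names, 90 reached a scaled count of 10 in 2 libraries or more, and 14327 genes of the whole table did so. A scaled count is the read count divided by the library's size factor. The names hold 31 genes of the small (40S) subunit, 43 of the large (60S) subunit, 3 of the P stalk, 11 paralogs or copies, and 2 genes that carry the prefix without encoding a subunit, Rps19bp1 and Rpl7l1.

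The 22 libraries came from C57BL/6 mice of 6-12 weeks and were made from P14 T cells, which carry a transgenic receptor for a viral peptide, in wild-type (WT) and VHL-deficient form. VHL belongs to a ubiquitin ligase and hands it the hypoxia-inducible factors, which are then degraded. Day 7 cells came from the spleen, from the tumor without further splitting, and from tumor sorted into Trm cells (Trm stands for resident memory T cells) and nonTrm cells, with 2 libraries for each genotype, and day 11 cells came from the tumor, with 3 libraries for each genotype. All groups share the P14 receptor, and each biological replicate stands for 5 mice per the series' design. That design text counts fewer samples than the 22 libraries given, while the header of the deposited values states 55. Whether the 5 mice hold for every library is therefore not known. Neither the driver of the deletion nor the tumor type, the meaning of day 0 or the sort markers could be taken from the labels. A "V" in a label was taken to mean VHL-deficient, and Vhl itself had 60 to 280 reads in the 11 WT libraries and 0 to 32 in the other 11. The Trm and nonTrm libraries lay in column 1 of the plate, day 7 spleen and unsplit tumor in column 2 and day 11 in column 3, so genotype, sort and tissue were compared within a column, while day and column cannot be told apart.

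A ribosome is built from a small subunit that reads the message and a large subunit that joins amino acids, and the P stalk on the large subunit recruits the factors that drive translation. Messages for ribosomal proteins are typically TOP messages: they start with a cytosine followed by a run of pyrimidines, through which the kinase complex mTORC1 raises their translation when T cells are activated. Some subunit genes have paralogs whose products can replace them, such as Rpl22l1 for Rpl22 and Rps27l for Rps27.

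Since the run at the start of the message is the known mark of TOP messages, the start windows of the genes that the results below turn on, and of both paralog pairs, are shown here. Each is 15 bases before and 15 bases from the RefSeq start site on, on GRCm38.p6, 5′ to 3′ on the gene's own strand. Capitals mark a cytosine followed by at least 4 pyrimidines (C or T) that begins within 5 bases of the start site.
Rps2, chr17:24720048-24720077, plus strand: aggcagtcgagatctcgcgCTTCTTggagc
Rps6, chr4:86857353-86857382, minus strand: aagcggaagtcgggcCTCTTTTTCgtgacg
Rps26, chr10:128626492-128626521, minus strand: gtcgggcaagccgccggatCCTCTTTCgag
Rpl28, chr7:4792950-4792979, plus strand: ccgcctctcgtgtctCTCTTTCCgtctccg
Rpl4, chr9:64173372-64173401, plus strand: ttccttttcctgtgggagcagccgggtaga
Rpl41, chr10:128549154-128549183, minus strand: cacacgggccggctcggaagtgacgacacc
Rps27, chr3:90213634-90213663, minus strand: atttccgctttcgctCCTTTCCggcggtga
Rps27l, chr9:66946071-66946100, plus strand: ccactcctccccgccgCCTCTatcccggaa
Rpl22, chr4:152325711-152325740, plus strand: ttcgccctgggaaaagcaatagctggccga
Rpl22l1, chr3:28805493-28805522, plus strand: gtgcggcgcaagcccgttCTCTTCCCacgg

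The pyrimidine run was found at 30 of the 66 genes with a start site in the RefSeq table, or 45.5%, on the gene's strand alone. It was found at 18.5% of all 27025 genes of that table. Among other genes of translation, 5 of 11 listed translation factors and other TOP messages had it, against 6 of 35 listed ribosome assembly genes and 15 of 68 mitochondrial ribosomal protein genes. Of the windows shown, those of Rpl4, Rpl41 and Rpl22 lack these letters at the annotated start, which says nothing about starts used elsewhere in those genes.

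Each library held 3375558 to 10211060 reads, of which the rRNA gene CT010467.1 took 26.9% to 45.7% and mitochondrial genes 2.89% to 12.1%. The remaining 1780047 to 6268448 reads held 78584 to 389194 reads of the 90 genes, so that counting error is small beside the spread between libraries. T cell markers were present in every library, with Cd8a at 1713 to 14333 and Trac at 3241 to 7731 scaled counts. Markers of other cells were low but not all absent. Among macrophage markers Adgre1 stood at 0 to 2.19, Lyz2 at 0 to 48.4 and Cd68 at 8.35 to 89.2. Among melanoma markers Mlana stood at 0 to 4.05, and Pmel at 60.8 to 96.1 in spleen and 16.2 to 70.3 in tumor. Hba-a1 was at 0 throughout, while Alas2, of the same red cell list, stood at 2.73 to 21.9. Col1a1 stood at 0 to 4.38, and of the endothelial pair Cdh5 stood at 0 to 3.28 and Pecam1, which T cells also express, at 153 to 427. Itgae, a marker of resident cells, stood at 26.1 ± 15.8 (SD, n = 2) in WT Trm and at 0 in both WT nonTrm libraries. The summed level of the 6 genes listed to check the sort went the other way in WT, at 9305 to 12582 in Trm and 12726 to 25167 in nonTrm. In VHL-deficient cells that sum was 26418 to 32029 in Trm and 19723 to 23863 in nonTrm, so Itgae alone does not settle the sort. VHL-deficient nonTrm replicate 2 stood apart: rRNA took 45.7% of its reads, and its nuclear RNA Malat1 stood at 34358 scaled counts against 4839 to 15027 in the other libraries. That library enters the shared spread of every test below, and calls that change without it are given both ways, an alternative that was in part added after seeing the data. In bulk samples, fewer cells of a type and less RNA per cell cannot be told apart.

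Ribosomal protein genes took a larger share of reads in WT T cells from tumor than in T cells from spleen, and in VHL-deficient T cells from tumor it lay within or below the range of spleen in all but 1 library. The share is of reads outside the rRNA gene and mitochondrial genes. In spleen it was 4.30% and 3.57% in WT and 4.41% and 3.57% in VHL-deficient cells. In unsplit day 7 tumor it was 5.46% and 8.02% in WT, and 3.95% and 3.80% in VHL-deficient cells. In Trm cells it was 8.35% and 6.21% in WT, and 3.89% and 2.69% in VHL-deficient cells.

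In nonTrm cells the share was 4.84% and 6.63% in WT, and 2.71% and 7.29% in VHL-deficient cells, the last being the library that stands apart. On day 11 it was 5.37%, 4.61% and 6.93% in WT, and 3.34%, 3.15% and 3.43% in VHL-deficient cells. The 9 WT tumor libraries thus ran from 4.61% to 8.35% (median 6.21%), and the 9 VHL-deficient ones from 2.69% to 7.29%, or to 3.95% in the 8 libraries without nonTrm replicate 2. The genotypes did not overlap in unsplit tumor, Trm or day 11 cells, and they overlapped in spleen and nonTrm cells. The 95% Wilson interval of each share reached at most 0.0365 percentage points to either side, for counting error alone.

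**Figure D1:**
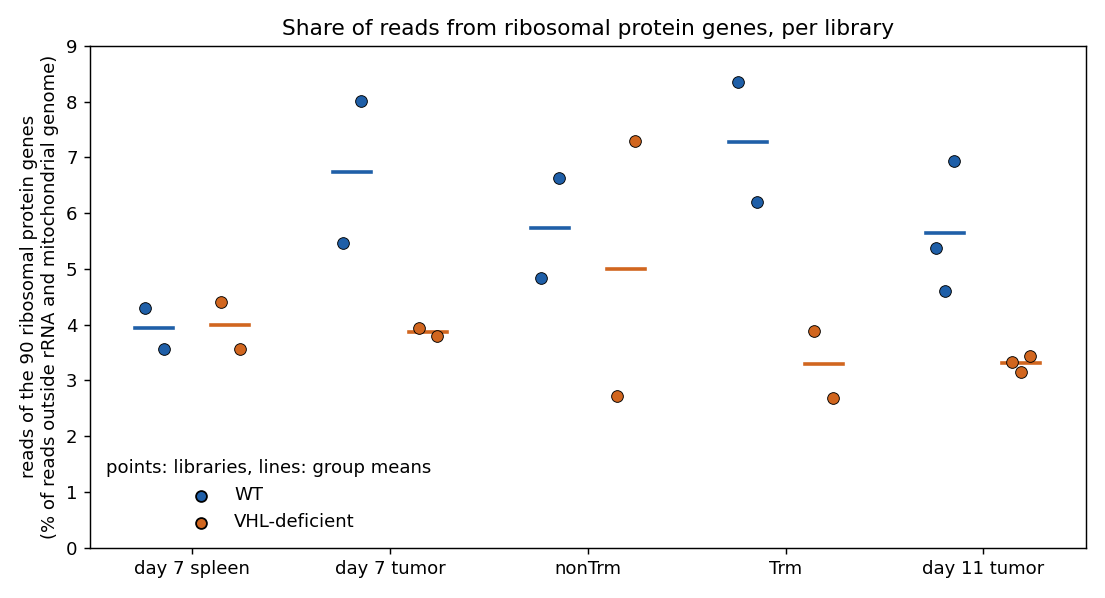
Share of reads from the 90 ribosomal protein genes in each library, in percent of reads outside the rRNA gene and mitochondrial genes, by group and genotype; points are libraries and lines are group means. WT tumor libraries sit between 4.61% and 8.35%, and VHL-deficient tumor libraries between 2.69% and 3.95%, except for nonTrm replicate 2 at 7.29%.

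Depth and mitochondrial reads moved with this share. In 8 of the 8 groups of 2 libraries, the library with fewer reads outside the rRNA gene and mitochondrial genes had the higher share. The groups of 3 did not keep to that order, since day 11 WT replicate 3, at 6.93%, was deeper than replicate 1, at 5.37%. Both genotypes covered much the same depths in tumor, 2125843 to 6268448 reads in WT and 1996942 to 6153480 in VHL-deficient cells. Mitochondrial genes took 7.56% to 12.1% of reads in WT tumor libraries and 2.89% to 5.57% in VHL-deficient ones, without overlap. Their part in the differences between groups was not tested.

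**Figure D2:**
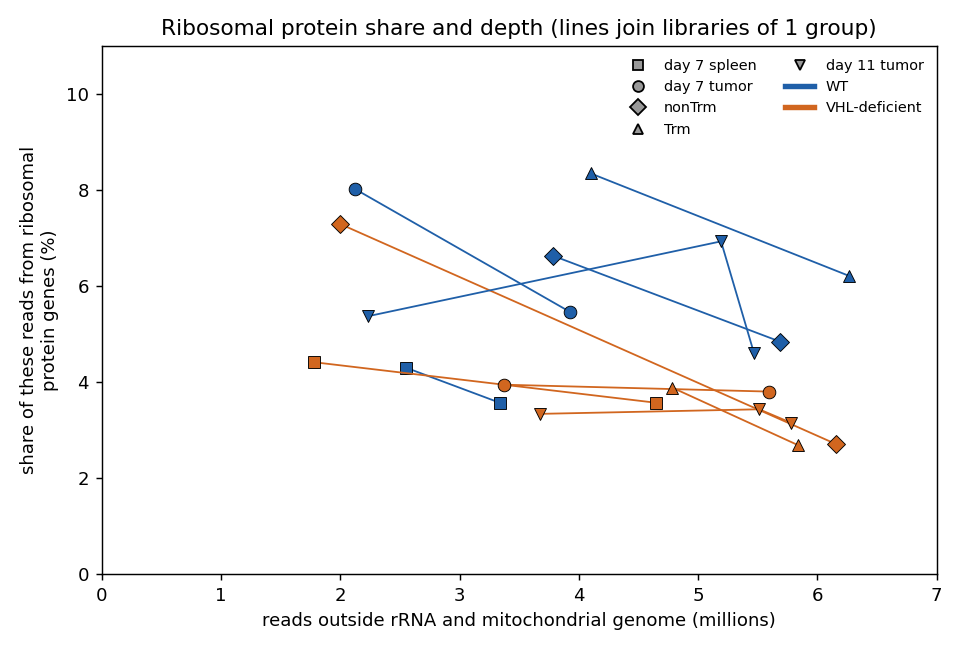
Share of reads from ribosomal protein genes (percent) against depth, in reads outside the rRNA gene and mitochondrial genes; symbols mark the group, colors the genotype, and lines join the libraries of 1 group in order of depth. Within each pair the shallower library has the higher share, and WT tumor libraries lie above VHL-deficient ones over much of the same range of depth, apart from nonTrm replicate 2.

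In WT cells at day 7, 25 of the 90 genes were higher in tumor than in spleen and 0 were lower, where 13.2% of all tested genes were called higher and 8.31% lower. Genes were compared with limma on log2(scaled count + 1), which understates the change of low genes, and called at a Benjamini-Hochberg adjusted p under 0.05 over 14327 genes. The median log2 fold change was 1.13 over the 90 genes and 0.08 over all tested genes, and 90 of 90 fold changes were positive. In 81 genes the 2 tumor libraries were both above the 2 spleen libraries, where 33.1% of all tested genes were. The called genes were 10 of the 31 small-subunit genes, 14 of the 43 large-subunit genes and 1 paralog, Rps27l, with 0 of the 3 P stalk genes.

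Rps2, a small-subunit protein near the site where the message enters, had the smallest adjusted p. It stood at 2086 and 681 scaled counts in WT spleen and at 6604 and 10077 in unsplit WT tumor. The groups were far apart, and the log2 fold change was 2.77 (SE 0.50, adjusted p = 5.2e-04). Rps26, which lies by the exit path of the message, stood at 398 and 317 in spleen and 1249 and 2601 in tumor, a log2 fold change of 2.34 (SE 0.55, adjusted p = 0.0048).

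Rpl28, a large-subunit protein, stood at 250.5 and 214 in spleen and 726 and 1345 in tumor, a log2 fold change of 2.09 (SE 0.44, adjusted p = 0.0022). In all 3 genes both tumor libraries were higher than both spleen libraries, and replicate 2 of tumor was the highest. B cell markers moved the other way: their summed level was 105 to 311 in spleen and 16.6 to 87.9 in tumor, most of it Cd79b, and the summed nuclear RNAs stood at 11614 to 12389 in WT spleen and 5683 to 5915 in WT tumor; their part in the result was not tested. The call depended on single libraries: 9 and 4 genes were called without WT spleen replicate 1 or 2, 41 without tumor replicate 1, 1 without tumor replicate 2, and 64 without VHL-deficient nonTrm replicate 2, where 27.8% of all tested genes were called in either direction. The shares of all tested genes called when a spleen or unsplit tumor library was left out are not given. Whether those changes were particular to the ribosomal protein genes is therefore not known. Of all tested genes, 17.1% were called higher without VHL-deficient nonTrm replicate 2. A fit of the 4 libraries alone called 6 (6.67%), below the 7.86% of all tested genes.

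In VHL-deficient cells, limma called 0 of the 90 genes between tumor and spleen, where 9.98% of all tested genes were called higher and 5.47% lower. Voom, limma's weighting for counts, on the recovered reads also called 0. An unadjusted p under 0.05 was found for 3 genes. Here and below, the share of all tested genes at an unadjusted p under 0.05 is not given. Since the 90 genes moved together, such counts are a description. The median log2 fold change was 0.12, and 55 fold changes were positive. Both tumor libraries were above both spleen libraries in 29 genes, where 33.8% of all tested genes were, and below them in 8, where 29% were. Rps2 stood at 2666 and 2139 in VHL-deficient spleen and at 1657 and 3519 in tumor, so that the groups overlapped. The median turned to -0.14 without VHL-deficient spleen replicate 2, and 7 genes (7.78%) were called, 6 higher and 1 lower, in a fit of the 4 libraries alone, where 21.2% of all tested genes were. The count was 2 without VHL-deficient nonTrm replicate 2, where 20.1% of all tested genes were called.

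The difference between the genotypes in their tumor against spleen contrast was tested as an interaction. Limma called 0 of the 90 genes, where 0.0209% of all tested genes were called higher and 0.0489% lower, and voom called 0; 4 genes had an unadjusted p under 0.05. The median interaction was -1.01 on the log2 scale, with 87 of 90 negative, beside -0.03 over all tested genes. The estimates thus leaned one way, and no gene passed its own test of the difference.

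Among Trm cells, 17 of the 90 genes were lower in VHL-deficient than in WT libraries and 0 were higher, where 5.03% of all tested genes were called lower and 5.07% higher. Their median log2 fold change was -1.18, beside 0.09 over all tested genes, and 90 of 90 fold changes were negative. In 82 genes both VHL-deficient libraries lay below both WT libraries, where 25% of all tested genes did. The called genes were 7 of 31 small-subunit genes, 7 of 43 large-subunit genes and 3 of 11 paralogs or copies.

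Rps2 stood at 5974 and 2849 in WT Trm and at 625 and 746 in VHL-deficient Trm, without overlap, and fell by 2.59 on the log2 scale (SE 0.50, adjusted p = 0.0027). Rpl28 stood at 1419 and 733 in WT and 457 and 189 in VHL-deficient cells and fell by 1.79 (SE 0.44, adjusted p = 0.0143).

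Rps6, the subunit protein that S6 kinases phosphorylate downstream of mTORC1, stood at 3120 and 2095 in WT and 1132 and 755 in VHL-deficient cells. It fell by 1.47 (SE 0.36, adjusted p = 0.0127). Among the other called genes were Rps3a1, Rps16, Rps26, Rpl3, Rpl4, Rpl6, Rpl8, Rpl10, Rpl31, Rps27l, Rps3a3 and Rpl39l, all named here after their values were seen where they lie outside the naming rule. Rpl39l, a paralog best known from the mouse testis, had 26 reads in the 2 WT Trm libraries and 1 read in the 2 VHL-deficient ones, a scaled ratio of 27.7 (95% counting interval 4.54 to 1134).

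The nuclear RNA Neat1 was higher in VHL-deficient Trm, at 1180 ± 701 against 287 ± 161 scaled counts (SD, n = 2; adjusted p = 0.0069), while the summed level of the 3 nuclear RNAs was 13040 to 14246 in VHL-deficient and 7702 to 10119 in WT Trm; the part of RNA quality was not tested. The count of 17 fell to 0 without WT Trm replicate 1 and to 1 without VHL-deficient Trm replicate 2, and rose to 31 without VHL-deficient Trm replicate 1. Without VHL-deficient nonTrm replicate 2, 69 genes were called lower, where 8.57% of all tested genes were called lower and 16.5% in either direction. The fit of the 4 libraries alone called 5 (5.56%), where 4.66% of all tested genes were called. The shares of all tested genes called when a Trm library was left out are not given, so those changes may belong to the whole fit. Of the 17 genes, 12 (70.6%) were also among the 25 called between WT tumor and spleen (48% of those), a comparison with other libraries in the same fit. Both comparisons use the same spread for each gene, so genes of small spread tend to be called in both. The overlap is a description, and that over all tested genes is not given.

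**Figure D3:**
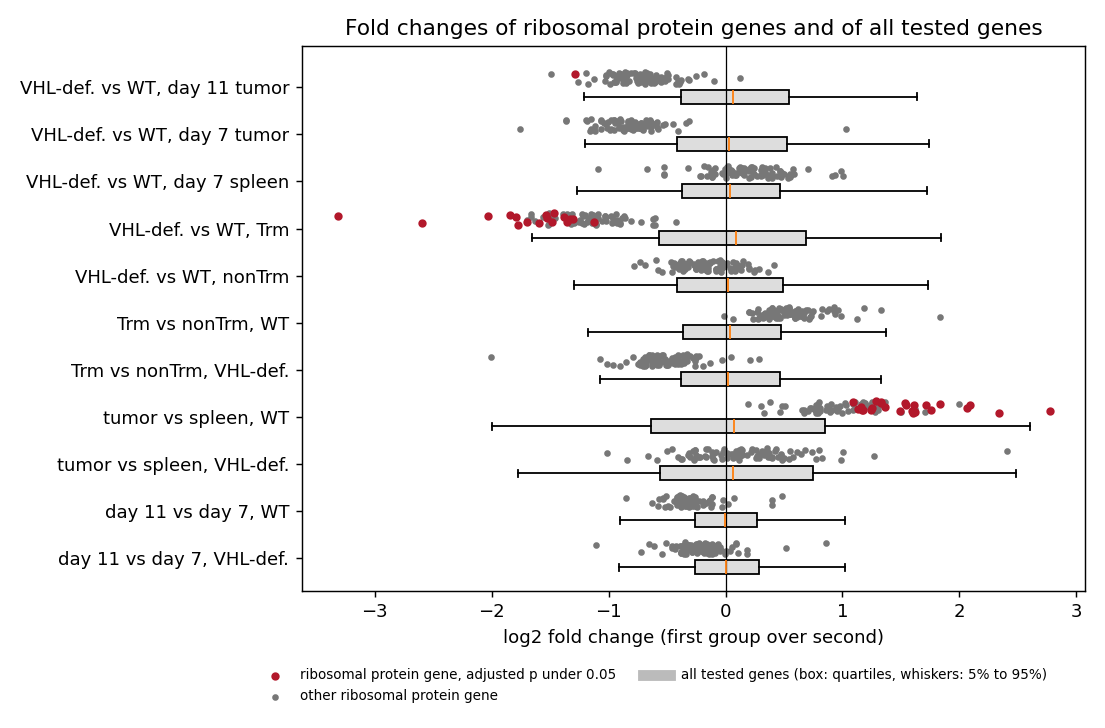
Log2 fold changes in 11 comparisons of groups, with the first group over the second; points are the 90 ribosomal protein genes, red where the adjusted p was under 0.05, and gray boxes show all tested genes (quartiles, whiskers from 5% to 95%). At least 89 of 90 points lie left of 0 for VHL-deficient against WT in Trm (median -1.18), unsplit tumor (-0.81) and day 11 tumor (-0.72), and all lie right of 0 for WT tumor against spleen (1.13), partly within the box, and they spread around 0 in VHL-deficient tumor against spleen (0.12).

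On day 11, the comparison with the most libraries, 80 of the 90 genes had all 3 VHL-deficient libraries below all 3 WT libraries, where 17.9% of all tested genes did. The median log2 fold change was -0.72, beside 0.07 over all tested genes, and 89 of 90 were negative. Limma called 1 gene, Rps3a3, where 2.39% of all tested genes were called lower and 4.47% higher. An unadjusted p under 0.05 was found for 32 genes, and the share of all tested genes at that threshold is not given. Rps3a3 is annotated as a processed pseudogene of Rps3a1, and reads of the copies may be split between them. It stood at 62.0, 60.2 and 109.8 in WT and at 30.2, 28.4 and 31.3 in VHL-deficient cells, without overlap, a log2 fold change of -1.28 (SE 0.38, adjusted p = 0.048).

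Rps2 stood at 5082, 5184 and 9185 in WT and at 1629, 3026 and 3553 in VHL-deficient cells on day 11 (log2 fold change -1.26, SE 0.41, adjusted p = 0.069). Rps6 stood at 1514, 1391 and 2452 in WT and at 952, 939 and 960 in VHL-deficient cells (log2 fold change -0.86, SE 0.29, adjusted p = 0.081). In both genes the groups did not overlap, and WT replicate 3 was the highest library. The VHL-deficient libraries varied less than the WT ones: their share of reads was 3.31% ± 0.144 against 5.64% ± 1.18 (SD, n = 3). A fit of these 6 libraries alone called 68 of the 90 genes lower, where 19.7% of all tested genes were called in either direction. The fit without VHL-deficient nonTrm replicate 2 called 21 lower, where 4.56% of all tested genes were called lower and 10.8% in either direction. The count was 0 when any of the 6 libraries was left out of the full fit.

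In unsplit day 7 tumor, the median log2 fold change of VHL-deficient against WT was -0.81, beside 0.03 over all tested genes, and 89 of 90 were negative. In 80 genes both VHL-deficient libraries lay below both WT libraries, where 23.6% of all tested genes did. Limma called 0, where 0.223% of all tested genes were called lower and 1.68% higher; 18 genes had an unadjusted p under 0.05, and voom also called 0. Rps6 stood at 1769 and 2895 in WT and 1297 and 1126 in VHL-deficient cells (log2 fold change -0.90, adjusted p = 0.26). Leaving out VHL-deficient nonTrm replicate 2 gave 1 call, where 2.96% of all tested genes were called.

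In spleen, no gene passed the test between genotypes. Over the 90 genes the median log2 fold change was 0.16, 69 of 90 were positive, limma called 0 where 2.44% of all tested genes were called higher and 0.733% lower, 0 had an unadjusted p under 0.05, and voom called 0. Both VHL-deficient libraries were above both WT libraries in 19 genes, where 23.7% of all tested genes were, and below them in 1, where 19.8% were. Rps6 stood at 985 and 876 in WT and 995 and 896 in VHL-deficient spleen, a log2 fold change of 0.02 with a 95% interval from -0.72 to 0.77. The median turned to -0.03 without VHL-deficient spleen replicate 1.

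In nonTrm cells the comparison of genotypes rested on which VHL-deficient library was read. With both, the median log2 fold change was -0.16, limma called 0 genes where 1.65% of all tested genes were called higher and 0.67% lower, 1 had an unadjusted p under 0.05, and voom called 0. Rpl4, a large-subunit protein with a loop that reaches into the exit tunnel, stood at 34659 and 45965 in WT, at 16745 in VHL-deficient replicate 1 and at 32151 in replicate 2. Rps27 stood at 783 and 1799 in WT, at 532 in VHL-deficient replicate 1 and at 4392 in replicate 2, its highest level in any library. Without replicate 1 the median log2 fold change was 0.82. By the mean log2 level of the 90 genes, VHL-deficient replicate 1, at 8.73, lay below both WT libraries, at 9.59 and 10.05. Replicate 2, the library that stands apart, lay above both WT libraries, at 10.60. With both libraries, 3 genes had the VHL-deficient libraries below both WT libraries, where 14.4% of all tested genes did.

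Trm cells of WT mice had higher point estimates than nonTrm cells in 89 of 90 genes, with a median log2 fold change of 0.52, and in VHL-deficient cells 87 of 90 were negative, with a median of -0.57. Limma called 0 in either comparison, where 0.202% of all tested genes were called higher and 0.0977% lower in WT and 0.00698% higher and 0% lower in VHL-deficient cells. Voom called 0 in both; 3 and 1 genes had an unadjusted p under 0.05. In WT, 26 genes had both Trm libraries above both nonTrm libraries, where 21.5% of all tested genes did. Rps2 stood at 1352 and 988 in WT nonTrm against 5974 and 2849 in WT Trm, without overlap (log2 fold change 1.83, SE 0.50, adjusted p = 0.12). The VHL-deficient median turned to 0.40 without nonTrm replicate 2, and 73 genes were called lower without nonTrm replicate 1, where 17.7% of all tested genes were called.

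The interaction of genotype with sort had a median of -1.06 with 0 genes called by limma or voom and 7 at an unadjusted p under 0.05, where 0% of all tested genes were called. The mean log2 level of the 90 genes was 8.73 in VHL-deficient nonTrm replicate 1 and 10.60 in replicate 2, the library that stands apart. It was 9.13 on average in VHL-deficient Trm, beside 9.82 in WT nonTrm and 10.37 in WT Trm. The size of the interaction thus depended on replicate 2. The interaction of genotype with day had a median of 0.12 with 0 called by limma or voom, 0 at an unadjusted p under 0.05 and 0% of all tested genes called; its median turned to -0.34 without day 7 WT tumor replicate 2 and to -0.03 without day 11 WT replicate 2.

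Day 11 libraries were compared with unsplit day 7 tumor across plate columns. The median log2 fold change was -0.34 in WT and -0.22 in VHL-deficient cells; limma and voom called 0 in both, where 0% of all tested genes were called, and 0 had an unadjusted p under 0.05. In VHL-deficient cells 49 genes had all day 11 libraries below both day 7 libraries, where 16.8% of all tested genes did. In WT cells 1 gene did, where 8.24% of all tested genes did, and the WT median turned to 0.10 without day 7 tumor replicate 2.

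The genes moved together from library to library, so that libraries of 1 group differed in the whole family at once. The median SD within groups was 0.54 on the log2 scale over the 90 genes, and 0.33 over the 630 tested genes at or above their median level. After each library was divided by the family's own level, which ran from 0.558 to 2.29 times the mean, the SD of the 90 genes fell to 0.14. That division uses the genes themselves, so the fall is a description. The highest group mean was in WT Trm for 80 genes, in unsplit WT tumor for 7 and in VHL-deficient nonTrm for 3. The lowest was in WT spleen for 41, in day 11 VHL-deficient tumor for 21, in VHL-deficient Trm for 14, in VHL-deficient spleen for 10, in unsplit VHL-deficient tumor for 3 and in VHL-deficient nonTrm for 1. The counterparts over all tested genes are not given, and these rankings cross plate columns. Since the genes moved together, the counts are a description.

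**Figure D4:**
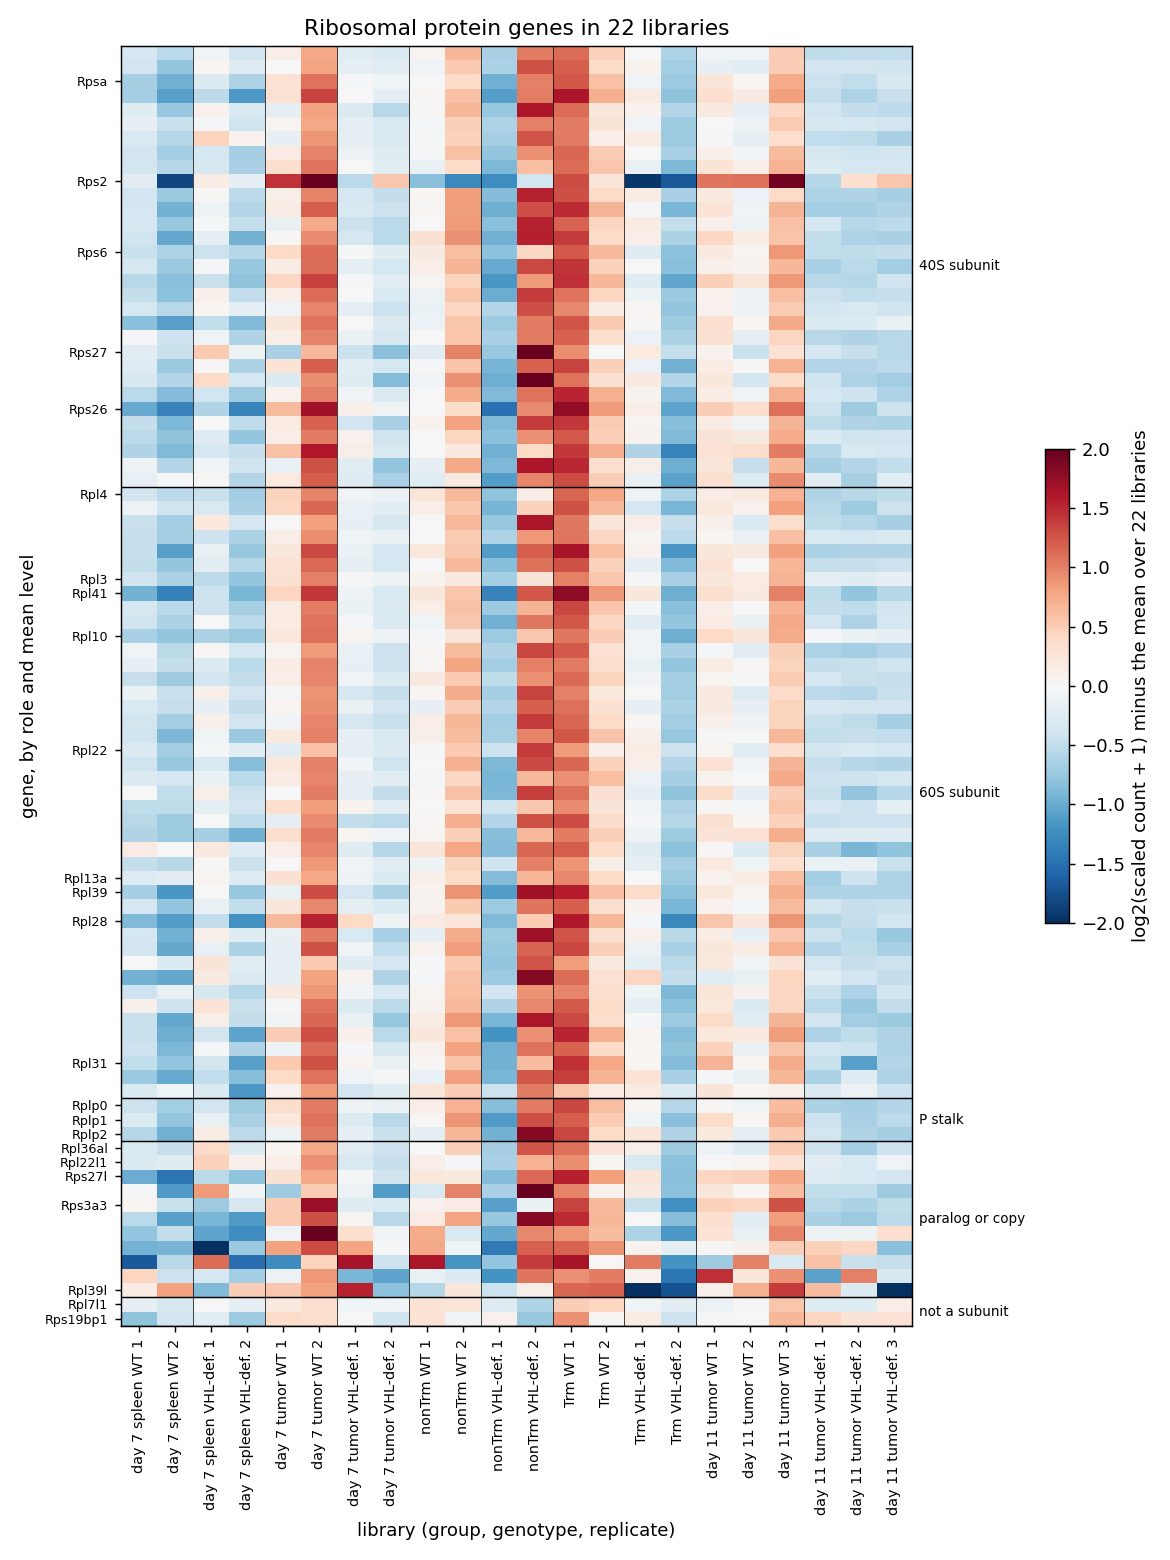
Log2(scaled count + 1) of each of the 90 genes minus its mean over 22 libraries; rows are genes by role and mean level, with some named at the left, columns are libraries by group, genotype and replicate, and color runs from -2 (blue) to 2 (red). Columns are nearly uniform in color across subunit genes, with WT Trm replicate 1, unsplit WT tumor replicate 2 and VHL-deficient nonTrm replicate 2 red in most genes, while Rps2 and the low copies at the bottom depart from their columns.

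Some genes did not follow the family. The 2 genes that encode no subunit, Rpl7l1 and Rps19bp1, had within-group SDs of 0.20 and 0.36 before the division and 0.55 and 0.63 after it, while the median over the 90 genes fell. Rpl7l1 was also the gene with the narrowest range of group means, 0.89 on the log2 scale, from 580 and 609 scaled counts in WT Trm down to 362 and 284 in VHL-deficient nonTrm, the group with the library that stands apart. Rps2 had the widest range, 3.58, and its within-group SD of 0.60 was 0.59 after the division. Exons of Rps2 overlap the antisense gene Snhg9, and the labels do not say whether the counting used strand; Snhg9 itself held 0 to 5.24 scaled counts.

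After the division, limma called 3 of the 90 genes higher in WT tumor than in spleen, where 2.68% of all tested genes were called higher and 14.3% lower. The count of 3 is near the share of all tested genes called higher. Since the division uses the 90 genes themselves, calls after it are a description. Limma called 0 of the 90 in the other comparisons. There the shares of all tested genes called higher and lower were 4.85% and 0.0907% between genotypes on day 11, 1.55% and 0.00698% in unsplit tumor, 1.26% and 0.126% in spleen, 10.7% and 0.0907% in Trm, 0.684% and 0.0279% in nonTrm, 2.82% and 1.59% between VHL-deficient tumor and spleen, and 0% in the rest. Without VHL-deficient nonTrm replicate 2, the same division gave 6 genes called higher and 3 lower in WT tumor than in spleen, Rps26, Rpl28, Rps2 and Rpl41 among them, where 4.46% of all tested genes were called higher and 31.8% lower. It then also gave 2 higher and 1 lower between VHL-deficient tumor and spleen (5.65% and 3.65% of all tested genes) and 1 higher and 2 lower between the genotypes in Trm (37.2% and 0.489%), and 0 in the others. The 3 genes called with all libraries were Rps26, at 1.22 (SE 0.30, adjusted p = 0.014), Rpl41, which encodes a very short large-subunit protein, at 0.95 (SE 0.28, adjusted p = 0.028), and Rps2, at 1.66 (SE 0.55, adjusted p = 0.046). Rpl41 stood at 1438 and 1082 scaled counts in WT spleen and 3727 and 7345 in tumor, without overlap. In Trm cells the same division left Rps2 at -1.40 (SE 0.55, adjusted p = 0.087) in VHL-deficient against WT cells.

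**Figure D5:**
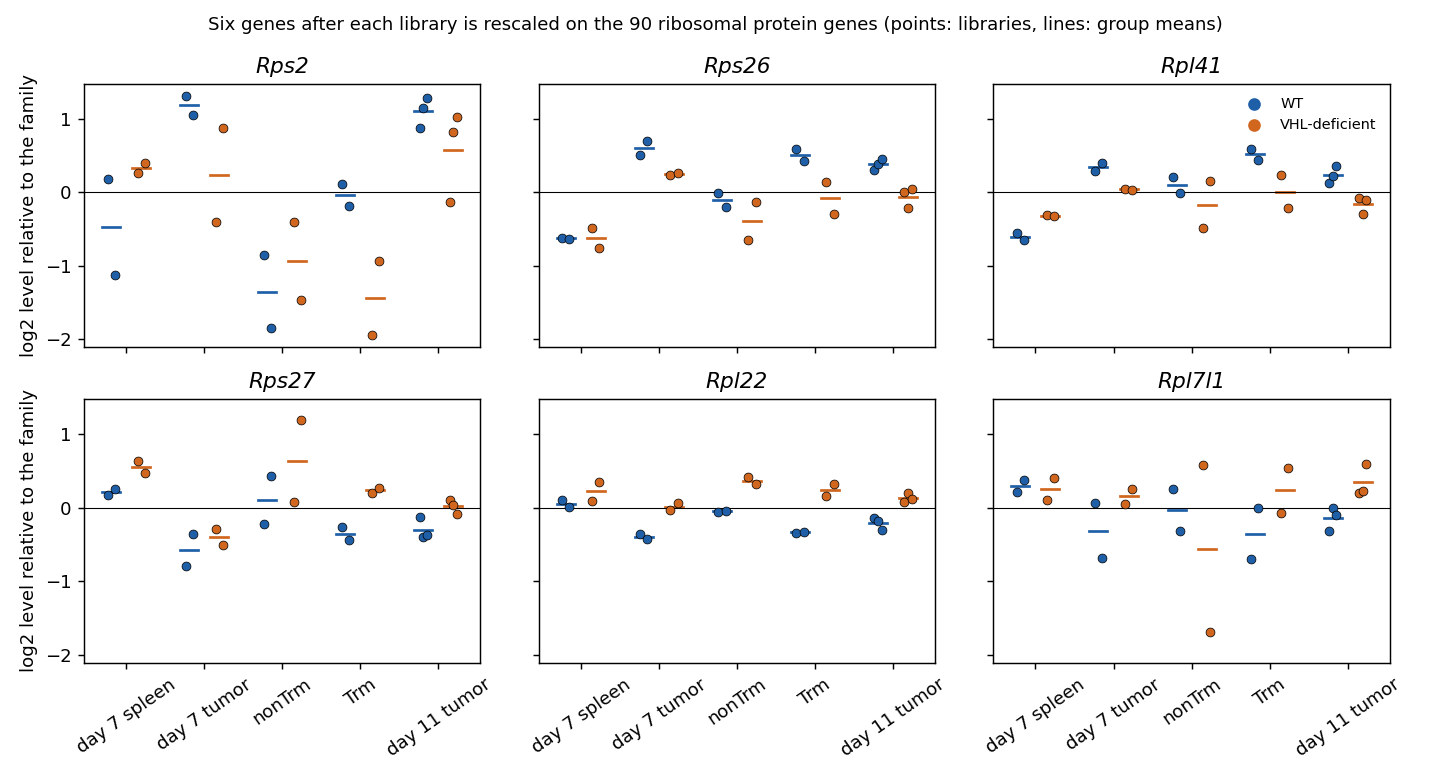
Log2 levels of Rps2, Rps26, Rpl41, Rps27, Rpl22 and Rpl7l1 relative to the level of the 90 genes in the same library, centered on each gene's mean; points are libraries, lines are group means and colors are genotypes. Rps26 and Rpl41 are above 0 in unsplit WT tumor and WT Trm and below 0 in spleen, and Rps2 spans the widest range.

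Limma called 0 of the 3 P stalk genes in any comparison, while at an unadjusted p under 0.05 it gave 2 lower in VHL-deficient cells in Trm, 2 lower on day 11 and 3 higher in WT tumor than in spleen. Rplp0, the base of the stalk, stood at 13206 and 10896 in WT spleen, 22533 and 36268 in unsplit WT tumor, and 16444 and 16184 in unsplit VHL-deficient tumor. In Trm it stood at 44477 and 26786 in WT and 18183 and 11913 in VHL-deficient cells, without overlap (log2 fold change -1.23, adjusted p = 0.099). Rplp1 and Rplp2, the flexible arms, had log2 fold changes of -1.32 and -1.03 there (adjusted p = 0.11 and 0.28). Rpsa, which also serves as a laminin receptor at the cell surface, rose between WT spleen, at 3901 and 3170, and tumor, at 7508 and 13045 (log2 fold change 1.49, adjusted p = 0.022).

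Rpl3, at the center that joins amino acids, rose from 2488 and 2125 in WT spleen to 4051 and 6618 in tumor (log2 fold change 1.17, adjusted p = 0.012) and fell in VHL-deficient Trm (-1.12, adjusted p = 0.028). Rpl10, a protein that joins the large subunit late in its assembly, rose in WT tumor (log2 fold change 1.37, adjusted p = 0.011) and fell in VHL-deficient Trm (-1.31, adjusted p = 0.027). Rpl13a, known in human cells for repressing messages of inflammation once released from the ribosome, and Rps4x, the X-linked copy of its subunit gene, were called in neither. Their log2 fold changes in Trm were -1.02 (adjusted p = 0.082) and -1.16 (adjusted p = 0.081).

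Rpl22 is dispensable for ribosomes in the mouse but needed for the development of alpha-beta T cells, and its paralog Rpl22l1 can take its place. Rpl22 stood at 946 and 711 in WT spleen and 985 and 1729 in unsplit WT tumor, and Rpl22l1 at 213 and 219 in spleen and 285 and 489 in tumor. The level of Rpl22l1 was 22.5% to 31.8% of that of Rpl22 in the 4 spleen libraries and 13.8% to 28.9% in the 18 tumor libraries, by scaled count without length. In Trm it was 21.7% to 23.9% in WT and 16.5% to 17.2% in VHL-deficient cells, and in unsplit tumor 28.3% to 28.9% and 19.7% to 20.7%, without overlap in either. The genotypes overlapped on day 11, at 21.7% to 27.3% in WT and 22.6% to 27.4% in VHL-deficient cells, in nonTrm, at 15.2% to 25.5% and 13.8% to 19.4%, and in spleen, at 22.5% to 30.8% and 28.3% to 31.8%. With 2 libraries a group, no test of the ratio was made.

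Rps27l is known as a target of p53, and Rps27 as a zinc-finger protein of the small subunit. Rps27l stood at 84.9 and 60.8 in WT spleen and 209 and 287 in unsplit WT tumor and rose by 1.76 on the log2 scale (SE 0.46, adjusted p = 0.0097), while Rps27 stood at 781 and 662 in spleen and 575 and 1423 in tumor, with overlap (0.33, SE 0.63, adjusted p = 0.75). Rps27l was 9.0% to 11.5% of Rps27 in the 4 spleen libraries, 20.2% to 36.4% in unsplit tumor of WT and 24.8% to 25.2% in that of VHL-deficient cells, without overlap between spleen and these. In nonTrm it was 10.8% to 25% in WT and 8.51% to 17.4% in VHL-deficient cells, which overlapped the range of spleen. In Trm it was 28.9% to 33.6% in WT and 14.7% to 19.4% in VHL-deficient cells, and on day 11 it was 24% to 35.3% and 19.9% to 21.1%. The start sites printed above both carry the pyrimidine run. The copy Rps27rt, whose reads may be mixed with those of Rps27, was at 3.64% to 8.34% of Rps27 in all libraries.

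Rpl36al stood above its partner Rpl36a in all 22 libraries by scaled count, at 190% to 241% in spleen and 118% to 216% in tumor. Rpl39l was at 0% to 4% of Rpl39 over all libraries and rested on few reads. It was the gene just inside the filter, with 4 libraries at 10 or more, next to Rpl32l with 7 and Rps4l with 8. Rpl3l, a muscle paralog of Rpl3, and Rpl10l, a paralog best known from the testis, lay just outside, with no library at 10.

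Per kilobase of exon, Rpl4 had the highest mean level, 15830 scaled counts, with Rplp0 next at 11833, and the median gene had 456. Among the 77 subunit and stalk genes, Rpl24 had the lowest, 42.1, and its exons overlap another gene, Gm28037. Rpl39l had the lowest of all, 7.89. Ribosomal protein genes have many processed copies, and the labels do not say how reads with several matches were counted. The -ps names held 0.0674% to 0.258% of reads outside the rRNA gene and mitochondrial genes. Exons of 22 of the 90 genes overlap another gene in GENCODE M21 (mm10), 18 of them an antisense one, Rpl28 with Ube2s among them, and 6 of the 90 are annotated as pseudogenes.

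The fold changes of 57 subunit and stalk genes were split by the pyrimidine run at the start site, with no test of the difference. In VHL-deficient against WT Trm the median log2 fold change was -1.15 over the 26 with it and -1.23 over the 31 without. In WT tumor against spleen it was 1.19 and 1.16, and in unsplit tumor of VHL-deficient against WT cells -0.87 and -0.81. The medians lay further apart in VHL-deficient tumor against spleen, at 0.01 with it and 0.18 without, and for genotype by tissue, at -1.07 and -0.89.

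Other genes of translation were counted from lists. Of all tested genes, 5.03% were called lower and 5.07% higher in VHL-deficient Trm. On day 11 2.39% were called lower, and 13.2% were higher in WT tumor than in spleen. Without VHL-deficient nonTrm replicate 2 these shares rose too. Then 8.57% of all tested genes were called lower in VHL-deficient Trm and 4.56% lower on day 11, and 17.1% were higher in WT tumor than in spleen. Of 17 translation factors and other TOP messages, 7 were lower in VHL-deficient Trm and 0 higher (median log2 fold change -0.97), and 7 were higher in WT tumor than in spleen (median 0.99). These counts were 12 and 13 without VHL-deficient nonTrm replicate 2, with 6 lower on day 11. Eef1g, a subunit of the elongation factor complex, had the smallest adjusted p in Trm, at 765 ± 147 in VHL-deficient and 3102 ± 263 in WT cells (SD, n = 2; log2 fold change -2.03, adjusted p = 3.2e-04). It was also the list's 1 call on day 11, at 913 ± 145 against 2085 ± 762 (SD, n = 3; -1.14, adjusted p = 0.0081). In VHL-deficient tumor against spleen, Hnrnpa1 and Eef1g were higher (1.15 and 0.99).

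Of 43 genes of ribosome assembly and rRNA synthesis, 15 were lower in VHL-deficient Trm (median log2 fold change -0.86). Nhp2, a protein of the particles that modify rRNA, fell by 2.06 (adjusted p = 0.0010), and Rrs1 and Nop58 fell by 1.90 and 1.33. In WT tumor against spleen 8 rose, Nop58 (1.42), Ncl (1.23) and Nolc1 (1.20) among them, and in VHL-deficient tumor against spleen 5 rose, led by Ddx21 (1.73, adjusted p = 0.0085) and Ncl (1.00). The medians of this list between tumor and spleen were 0.44 in both genotypes, while those of the 90 ribosomal protein genes were 1.13 and 0.12. Of all tested genes 13.2% rose in WT and 9.98% in VHL-deficient cells between spleen and tumor. Without VHL-deficient nonTrm replicate 2 these shares were 17.1% and 12.9%, and 8.57% of all tested genes were lower in VHL-deficient Trm and 4.56% on day 11. In spleen, Ddx21 was lower in VHL-deficient cells, and in nonTrm cells Ltv1 and Bysl were. Without VHL-deficient nonTrm replicate 2, 20 genes were called lower in Trm and 4 on day 11, 9 and 7 rose between spleen and tumor, and 0 were called in nonTrm.

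Of 79 mitochondrial ribosomal protein genes, 14 were lower in VHL-deficient Trm (median -0.86) and 1 on day 11 (median -0.40), and 10 were higher and 1 lower in WT tumor than in spleen (median 0.49), beside 13.2% and 8.31% of all tested genes. In VHL-deficient tumor against spleen 1 was higher (median -0.10). Without VHL-deficient nonTrm replicate 2, 32 were lower in Trm and 4 on day 11, where 8.57% and 4.56% of all tested genes were. In WT tumor 16 were then higher and 1 lower, where 17.1% and 10.7% of all tested genes were.

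The mTORC1 list, of which 17 of 18 genes were tested, had medians between -0.15 and 0.24 in the 11 comparisons of groups, with members called in both directions. In Trm 2 were higher and 1 lower in VHL-deficient cells, where 5.07% and 5.03% of all tested genes were. On day 11 and in spleen 2 were higher, where 4.47% and 2.44% of all tested genes were. Eif4ebp1, whose product 4E-BP1 represses translation until mTORC1 phosphorylates it, was higher in VHL-deficient than in WT cells of the spleen (log2 fold change 1.76, adjusted p = 0.016), Trm (1.40, adjusted p = 0.032), nonTrm (2.05, adjusted p = 0.0065) and day 11 tumor (1.62, adjusted p = 0.0043). Rptor, the scaffold of mTORC1, was higher in VHL-deficient Trm (1.35, adjusted p = 0.0021) and day 11 tumor (0.93, adjusted p = 0.0083), and lower in tumor than in spleen in WT (-1.76) and VHL-deficient cells (-1.10). Eif4e, the cap-binding factor that 4E-BP1 blocks, was lower in VHL-deficient Trm (-1.10, adjusted p = 0.018). The counts in Trm, spleen and day 11 tumor were the same without VHL-deficient nonTrm replicate 2.

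Genes of proliferation were counted as well. Of 14, 11 were lower in VHL-deficient Trm, 10 on day 11 and 1 in nonTrm, where 5.03%, 2.39% and 0.67% of all tested genes were. In each genotype 14 were higher in tumor than in spleen, where 13.2% of all tested genes were in WT and 9.98% in VHL-deficient cells. Between WT Trm and nonTrm 5 were higher in Trm, where 0.202% of all tested genes were. Between genotypes the list's median log2 fold change was -0.78 in unsplit tumor and -0.69 in spleen, with no gene past the threshold in either. Mki67, expressed in dividing cells, stood at 423 ± 71.6 in VHL-deficient and 1784 ± 59.4 in WT Trm, and at 356 ± 56.4 and 1270 ± 104 on day 11. It rose from a mean of 200.2 in spleen to 964 in tumor of VHL-deficient cells (log2 fold change 2.26, SE 0.28, adjusted p = 1.2e-05), a comparison in which the median of the 90 ribosomal protein genes was 0.12. The part of the share of dividing cells in the ribosomal protein values was not tested.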

How the data were processed

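The deposited table holds a signal per gene and library. Per the submitters' processing notes, the authors used STAR, featureCounts and DESeq with the build mm10; no source states their settings. Per the labels' protocols, sorted cells were lysed in TCL buffer, RNA was purified on beads and libraries were made with a PrepX kit. The deposited signal equals reads divided by 1 size factor per library, plus 1: after taking off 1, 100% of values were whole multiples of a step per library (tolerance 0.01 reads, largest deviation 0.000607). Reads per library are therefore known (3375558 to 10211060), with 1 read worth 0.684 to 2.73 scaled counts.

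Tests covered the 14327 genes that reached a scaled count of 10 in 2 libraries or more. Limma 3.58.1 (R 4.3.3) was fitted once to log2(scaled count + 1) of all 22 libraries as 10 group means (12 residual degrees of freedom), using eBayes with an intensity trend, two-sided tests and Benjamini-Hochberg adjustment. The p-values measure the spread between libraries, which may be partly technical. The procedure was tested on simulated counts, drawn independently for each gene with a single fixed dispersion. That simulation held no shift of a whole gene family between libraries, so it does not cover this feature of the data. Members, gene lists (translation factors, ribosome assembly, mTORC1, mitochondrial ribosome, proliferation, cell markers, nuclear RNAs) and alternatives were chosen with earlier results of these data known. Named genes are fixed members, up to 4 called members per comparison and direction with the smallest adjusted p, the extremes of level and range, and genes beside the filter. Values of some single genes are not reported here. Sequences are from RefSeq (GRCm38.p6), positions from GENCODE M21. Plots used Python 3.11.15 with matplotlib 3.10.9.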

Additional observations from a re-analysis of the deposited data

How the results depend on the processing

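Counts of called genes are of the 90. Of all tested genes, voom called 13.7% in Trm and 9.56% on day 11 in either direction, beside 36.7% and 4.44% of the 90. Fits of only the groups compared called 4.66% of all tested genes in Trm and 19.7% on day 11. Between tumor and spleen those fits called 7.86% of all tested genes in WT and 21.2% in VHL-deficient cells. The shares of all tested genes under TMM, the filters and the pseudocounts are not given. Between VHL-deficient and WT Trm (17), further TMM scaling gave 29, no filter 8, only the groups compared 5 and voom on recovered reads, added after seeing the data, 33; leaving out 1 library gave 0 to 69. On day 11 (1), TMM, a filter at 50 and a pseudocount of 5 each gave 2, no filter and a pseudocount of 0.5 gave 0, only the groups compared 68 and voom 4; leaving out 1 library gave 0 to 21. Between WT tumor and spleen (25), only the groups compared gave 6 and leaving out 1 library 1 to 64. In VHL-deficient cells (0), a pseudocount of 0.5 gave 1, only the groups compared 7 and leaving out 1 library 0 to 2.

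Leaving out 1 library gave 0 to 1 in unsplit tumor, 0 to 10 between genotypes in nonTrm, 0 to 73 between VHL-deficient Trm and nonTrm and 0 to 78 for genotype by sort. A group left with a single library took its spread from the other groups. Leaving out 1 library turned some medians, which then ranged from -0.025 to 0.39 in spleen, from -0.14 to 0.32 for VHL-deficient tumor against spleen, from -0.78 to 0.10 for WT day 11 against day 7, from -0.34 to 0.54 for genotype by day, from -1.09 to 0.82 in nonTrm and from -1.50 to 0.40 for VHL-deficient Trm against nonTrm. The causes were not tested. A called gene's direction turned under none of these alternatives. Rescaling on genes outside the ribosome and the mitochondrial genome left every count of called genes within 1.5 times. The edgeR test was not run.

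With the replicate number as a block, 13 genes (14.4%) were called in Trm, where 8.44% of all tested genes were. Between WT tumor and spleen 19 (21.1%) were called, where 19.3% of all tested genes were. On day 11 the block gave 0, where 5.765% of all tested genes were called, and no other count changed. On day 11 the same-number correlations of deviations were 0.0427 to 0.105, and 6 of 6 libraries correlated best with their own number, a hint from the data and not the design; in the pairs they ran from -0.18 to 0.27. The numbers were not taken to pair the libraries. Counting error is small for most members, but Rpl39l, Rps4l and Rpl32l rest on few reads.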
